A study of Mus musculus with 16 samples.

Results

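Scavenger receptors are a structurally mixed group of surface and secreted proteins through which macrophages take up modified lipoproteins, polyanions, microbes and dying cells. The class A receptors Msr1 and Marco are trimers with collagen-like stalks, Olr1 is a lectin-like receptor for oxidised low-density lipoprotein, and Scarb1 exchanges cholesterol with high-density lipoprotein. Stab1 and Stab2 are large receptors that clear matrix molecules and are best known from sinusoidal endothelium and tissue macrophages. Cxcl16 is a membrane-bound chemokine that also binds oxidised lipoprotein and phosphatidylserine, and Cd5l is a secreted protein with scavenger receptor cysteine-rich domains rather than a receptor.

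These 8 genes were followed across macrophages sorted from perigonadal fat of C57BL/6J mice aged 12 to 14 weeks, lean with Lep +/+ or obese with Lep ob/ob. Cells sorted as F4/80-positive, CD11b-positive and CD11c-negative are called FB, and those that also stained for CD11c are called FBC. RNA amplified for 2 rounds was hybridised to 16 Affymetrix mouse arrays, with 4 in each combination of genotype and cell population, and according to the design text both populations came from 4 lean and 4 obese mice. Lep ob/ob mice lack leptin in the whole body, so lack of the hormone and obesity cannot be told apart, and the labels do not say which mouse gave which sorted sample or whether sorted cells of several mice were pooled. The genes were taken as all probe sets that name one of the 8 and no other gene, which gave 15 of 34945 probe sets with a single gene symbol and 8 of 18193 genes. Each gene is represented by its probe set with the highest mean, and the other probe sets are shown beside it. Levels are log2(intensity + 16) after quantile normalization, listed for arrays 1 to 4 of each group in order. Differences are log2 differences ± SE on the same scale, which understates the change of dim probe sets. Adjusted p-values are from limma with Benjamini-Hochberg adjustment over 11908 tested genes, and 0.05 was the threshold. In sorted populations, fewer cells that carry a transcript and less RNA per cell cannot be told apart.

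All 8 macrophage markers (Adgre1, Csf1r, Cd68, Fcgr1, Mertk, Lyz2, Itgam and Itgax) lay above the array median of 5.87 on all 16 arrays. So did 6 of 6 monocyte, 8 of 10 fibroblast and 5 of 7 dendritic cell markers. This reading therefore does not set macrophages apart from other cells. The characteristics label of the FBC arrays is written with both a minus and a plus sign after CD11c, and Itgax, which encodes CD11c, exceeded its FB level in the FBC of lean (1.49 ± 0.26, adjusted p = 0.0213) and obese mice (2.20 ± 0.26, adjusted p = 0.000111). Array 4 of lean FB, lean FBC and obese FB stood apart in RNA quality, with 3' to 5' actin probe set ratios of 45.0 to 53.3 against 1.15 to 10.9 on the other 13 arrays. For Olr1, Marco, Scarb1 and Stab1, results that rest on these 3 arrays are given with and without them. For Msr1 and Cxcl16 the range over the alternatives, which include leaving out these arrays, is given instead. In lean mice, array 4 differed in markers of other cells too. The eosinophil gene Siglecf read 8.53, 8.01, 7.98 and 11.98 over lean FB. The fibroblast gene Dcn read 13.3, 13.4, 13.44 and 10.56 there, and 12.41, 12.96, 12.88 and 9.51 over lean FBC. Over obese FB, Dcn read 9.85, 9.98, 9.82 and 9.61. The parts of RNA quality and cell content in results without the 3 arrays were not tested. Of the 8 scavenger receptor genes, 7 lay above the array median on all 16 arrays. Marco did so on 5, namely 1 lean FB, 2 lean FBC and 2 obese FBC arrays and none of obese FB, so it entered the test only through the groups in which it was brighter.

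**Figure D1:**
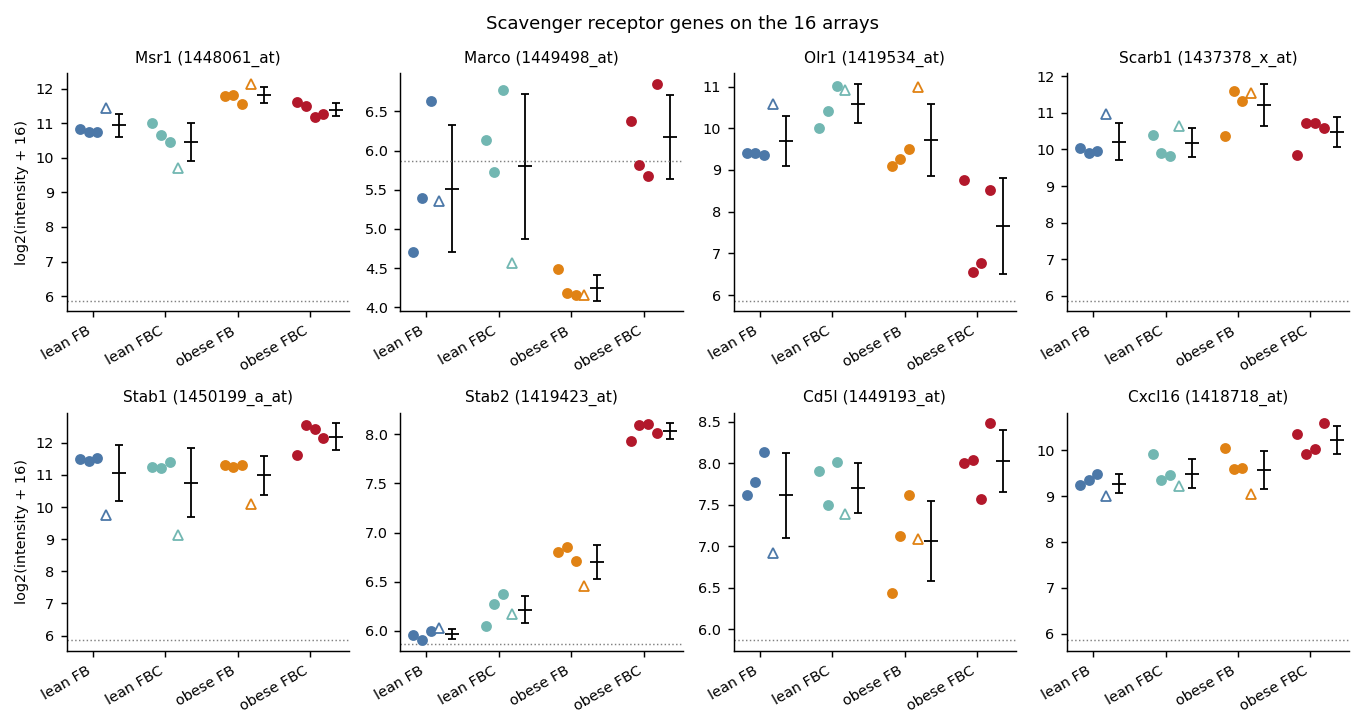
Level of each scavenger receptor gene, log2(intensity + 16) on the vertical axis, on the 16 arrays by group. Points are arrays, open triangles are the 3 arrays of high actin ratio, black bars are the mean and SD of 4 arrays, and the dotted line is the array median of 5.87. Stab2 climbs in separate steps to 8.03 in obese FBC, Olr1 drops to 7.65 there, and the low Stab1 points are all triangles.

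In obese FBC macrophages, the cells with CD11c, the stabilin gene Stab2 was 3.52-fold higher and the lipoprotein receptor gene Olr1 7.66-fold lower than in lean FBC. Msr1 and Cxcl16 rose as well, by 1.92-fold and 1.66-fold. In obese against lean FB macrophages Msr1 (1.85-fold) and Stab2 (1.66-fold) rose and no scavenger receptor gene fell past the threshold. Between the populations of obese mice, Stab2 and Cd5l were higher and Olr1 lower in FBC, and Marco, which was near the floor in obese FB, was higher in FBC. In lean mice none of the 8 differed past the threshold. Read against all genes tested, 2 of 8 passed in FB, where 5.89% of all genes did, 4 of 8 in FBC against 14.1%, 0 of 8 between the lean populations against 0.193%, and 4 of 8 between the obese populations against 8.39%. By direction, 2 were higher and 0 lower in FB, against 1.81% and 4.07% of all genes. In FBC 3 were higher and 1 lower, against 8.12% and 5.95%. Between the lean populations 0 were higher and 0 lower, against 0.151% and 0.0420%, and between the obese populations 3 were higher and 1 lower, against 5.11% and 3.28%. Where a change of at least 2-fold was also asked for, 0 members passed in FB (4.11% of all genes), 2 in FBC (6.81%), 0 between the lean (0.185%) and 3 between the obese populations (4.66%). The counts between the obese populations include Marco, which reached the test only through its brighter groups, so they are partly fixed by the filter. Without a filter 3 of the 8 passed there, Marco, Olr1 and Stab2. The share of all genes that passed without a filter is not given beside that count. At an unadjusted limma p under 0.05 there were 4 members in FB, 5 in FBC, 0 between the lean and 7 between the obese populations, beside 2403, 3445, 976 and 2988 of the 11908 genes. The median log2 difference of the 8 genes was 0.16 in FB, 0.56 in FBC, 0.16 between the lean and 0.81 between the obese populations, beside medians of all genes of 0.03, 0.08, -0.00053 and 0.08. Both obesity comparisons and both population comparisons draw on the same 4 groups, so the columns of values are not independent of each other.

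**Figure D2:**
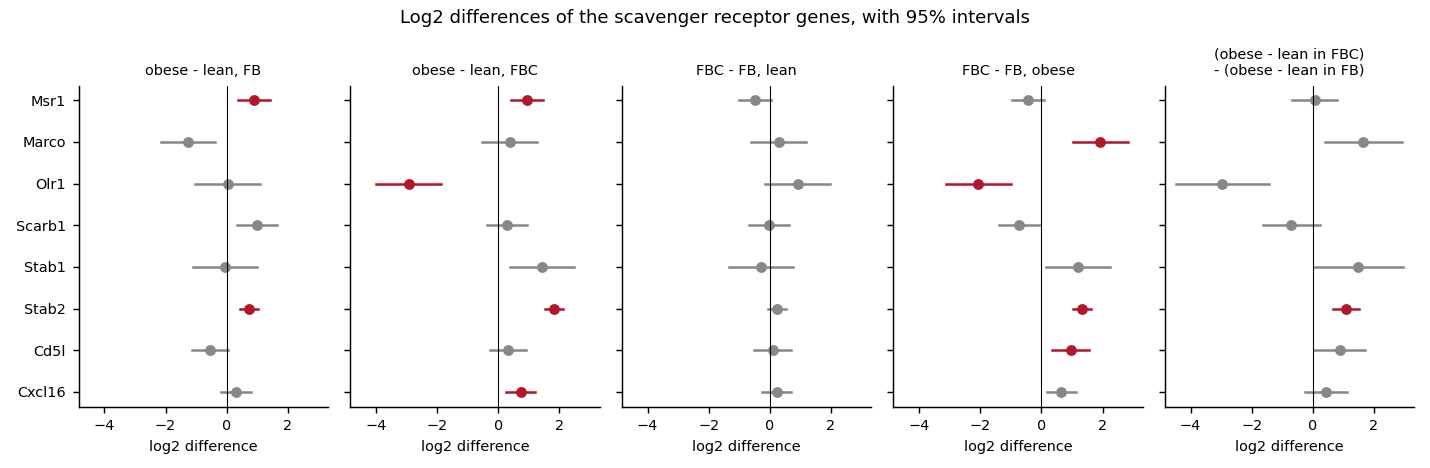
Log2 differences of the 8 genes with 95% intervals in the 4 pairwise comparisons and in the obesity effect of FBC minus that of FB. Red marks an adjusted p under 0.05 over all genes tested; Stab2 is red in 4 of the 5 panels and Olr1 in 2, on the opposite side of 0.

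Stab2 encodes stabilin-2, an endocytic receptor that clears hyaluronan and other polyanions from the circulation. Its levels were 5.96, 5.91, 6.00 and 6.03 on the lean FB arrays and 6.05, 6.27, 6.38 and 6.17 on the lean FBC arrays, just above the array median. They were 6.80, 6.85, 6.71 and 6.46 in obese FB and 7.93, 8.09, 8.10 and 8.01 in obese FBC. The means were 5.97 ± 0.05, 6.22 ± 0.14, 6.71 ± 0.17 and 8.03 ± 0.08 (SD, n = 4). No group overlapped any other, in the order obese FBC, obese FB, lean FBC and lean FB, and the scatter within groups, with SDs of 0.05 to 0.17, was small beside the steps. Groups that do not overlap were seen for 11.8% of all genes in FB, 20.0% in FBC, 5.63% between the lean and 17.7% between the obese populations.

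With obesity Stab2 rose by 0.73 ± 0.14 in FB (adjusted p = 0.00498) and by 1.81 ± 0.14 in FBC (adjusted p = 1.9e-06). Its FBC against FB difference was 1.33 ± 0.14 in obese mice (adjusted p = 4.77e-05) and 0.24 ± 0.14 in lean mice (adjusted p = 0.692). It was the 1 scavenger receptor gene whose obesity effect differed between the populations past the threshold, larger in FBC by 1.08 ± 0.20 (adjusted p = 0.0418). The estimate for Olr1 was larger in size, -2.96 ± 0.72, and did not pass (adjusted p = 0.0856). Of all genes 0.160% passed that test, 0.0840% with a higher and 0.0756% with a lower effect in FBC, and the share was 0.160% with a 2-fold minimum as well. The Stab2 call for this difference lay close to the threshold and ended under 17 of 31 alternatives. It ended on leaving out any of 13 arrays, with adjusted p of 0.0529 to 0.125 and values of 0.998 to 1.13. It held without lean FB array 4, lean FBC array 3 or obese FB array 1. The FB call ended without quantile normalization (0.59, adjusted p = 0.0622).

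Stab2 is also an endothelial gene, so endothelial markers were read beside it. Of 14 such markers, Pecam1 (4.20 to 4.95) and Tie1 (4.11 to 4.92) lay below the array median on all 16 arrays, and 11 were bright enough to test. None of the 11 passed in obese against lean FBC (14.1% of all genes) or in FBC against FB of obese mice (8.39%). Tek and Lyve1 fell in obese FB, as did 4.07% of all genes. The median log2 difference of the 11 was 0.83 in FBC against FB of obese mice, beside 0.08 for all genes, which is the direction of Stab2, and -0.19 in obese against lean FBC, beside 0.08. The summed intensity of the 13 markers other than Lyve1, which resident macrophages also express, was 737 to 1236 in lean FB, 527 to 1673 in lean FBC, 437 to 747 in obese FB and 555 to 1285 in obese FBC. The part of endothelial cells in the Stab2 result was not tested. With Lyve1 the sums were 3791 to 10003, 1656 to 8897, 1104 to 1586 and 1021 to 7155. The summed intensity of the 8 macrophage markers was 48235 to 51129 in obese FBC against 32586 to 42953 over the other 12 arrays, so it was highest in the group with the highest Stab2; its part in the result was not tested. The 3 genes most like Stab2 across the 16 arrays were Gusb (r = 0.986), a lysosomal glucuronidase, Nek6 (r = 0.976), a mitotic kinase, and Myo10 (r = 0.970), an unconventional myosin, out of 11426 compared. All 3 rose in obese FB and obese FBC and were higher in obese FBC than in obese FB, as Stab2 was. They were picked by r over these same arrays, so the shared group pattern follows from the choice. Within groups, after group means were removed, the r values were 0.40, 0.06 and -0.30.

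The promoters of Stab2 and Olr1 are shown because these genes had the largest changes in opposite directions in the same cells. Each runs from 250 bases before to 50 bases after the annotated start on the minus strand, from RefSeq on GRCm38.p6, at chr10:87007893-87008192 for Stab2 and chr6:129507116-129507415 for Olr1. Capitals mark the AP-1 motif TGANTCA and the nuclear receptor motif AGGTCA, searched on both strands.
Stab2: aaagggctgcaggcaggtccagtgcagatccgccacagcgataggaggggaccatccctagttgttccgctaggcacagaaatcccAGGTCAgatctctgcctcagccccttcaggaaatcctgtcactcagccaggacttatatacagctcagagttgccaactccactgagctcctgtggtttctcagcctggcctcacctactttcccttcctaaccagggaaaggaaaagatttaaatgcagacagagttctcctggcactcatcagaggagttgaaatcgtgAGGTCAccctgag
Olr1: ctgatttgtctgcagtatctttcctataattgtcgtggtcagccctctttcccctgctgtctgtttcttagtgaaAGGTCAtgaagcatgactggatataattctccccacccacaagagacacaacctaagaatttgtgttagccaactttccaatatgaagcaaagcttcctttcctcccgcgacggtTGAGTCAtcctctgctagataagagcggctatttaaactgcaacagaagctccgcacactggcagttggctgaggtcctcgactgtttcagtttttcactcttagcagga
The Olr1 window held 1 AP-1 motif, present in 7.81% of 32851 promoters of this length, and 1 AGGTCA, present in 16.3%. The Stab2 window held 2 AGGTCA and no AP-1 motif. The PU.1 core GAGGAA, present in 28.3% of promoters, occurred once each in the windows of Marco, Olr1, Stab1 and Cd5l, and the E-box CACGTG, present in 7.15%, in none of the 5 promoters matched, those of Marco, Olr1, Stab1, Stab2 and Cd5l. No motif overlapped another in these windows, and a match is a run of letters, not a measured site.

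Olr1, also called LOX-1, binds oxidised low-density lipoprotein. Its levels were 9.41, 9.40, 9.35 and 10.59 in lean FB and 10.01, 10.41, 11.02 and 10.92 in lean FBC. In obese FB they were 9.10, 9.26, 9.50 and 10.99, and in obese FBC 8.77, 6.55, 6.77 and 8.53. The means were 9.69 ± 0.60, 10.59 ± 0.47, 9.71 ± 0.86 and 7.65 ± 1.15 (SD, n = 4). All 4 obese FBC arrays lay below all 12 others, while both FB groups covered nearly the same range, each with array 4 well above its other arrays.

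Olr1 fell with obesity in FBC by 2.94 ± 0.51 on the log2 scale (adjusted p = 0.00118), and did so under all 31 alternative settings, with values of -3.30 to -2.58 and adjusted p of at most 0.00543. In FB the obesity difference was 0.02 ± 0.51 (adjusted p = 0.986, 95% interval -1.04 to 1.09). Obese FBC were lower than obese FB by -2.06 ± 0.51 (adjusted p = 0.0185). This call ended without obese FB array 4 (-1.63, adjusted p = 0.0665), obese FBC array 2 (-1.69, adjusted p = 0.0736) or obese FBC array 3 (-1.77, adjusted p = 0.0614), and held without the 3 arrays of high actin ratio (-1.62, adjusted p = 0.033). It also ended with the log2 actin ratio as a covariate (-1.73, adjusted p = 0.0634) and in a fit of only the groups compared (adjusted p = 0.0502). The obesity effect of FBC minus that of FB, -2.96 ± 0.72, did not pass (adjusted p = 0.0856), but passed without those 3 arrays (-2.70, adjusted p = 0.0473) and without lean FB array 4 (-3.25, adjusted p = 0.026). It passed as well with array weights (-2.70, adjusted p = 0.00299) and with the array number as a fixed (adjusted p = 0.0252) or random replicate block (adjusted p = 0.0272), and did not pass with the actin covariate (-2.69, adjusted p = 0.126).

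The genes most like Olr1 over the 16 arrays were Malt1 (r = 0.958), a protease of NF-kappaB signalling, the neutrophil chemokine Cxcl3 (r = 0.955) and Nfkbie (r = 0.952), an inhibitor of NF-kappaB. All 3 fell in obese FBC, by -2.13, -2.59 and -1.67, which follows in part from their choice by r over these arrays. Their within-group r with Olr1 was 0.91, 0.90 and 0.94. Markers of other myeloid cells also moved with the populations. The summed intensity of 6 monocyte markers was 5350 to 5780 in obese FBC, 26867 to 39119 in obese FB, 6239 to 11102 in lean FBC and 9577 to 29076 in lean FB. The upper end of the lean FB range came from array 4, one of the arrays of high actin ratio. Plac8 read 13.20 there against 10.87 to 11.19 on arrays 1 to 3, and Chil3 13.30 against 11.15 to 11.56. The sum of 7 dendritic cell markers was 6950 to 11418 in lean FBC, where Olr1 was highest, 3043 to 6141 in obese FBC, 2474 to 2920 in lean FB and 657 to 1111 in obese FB. The part of these cells in the Olr1 result was not tested.

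Msr1, the class A receptor for acetylated lipoprotein, is represented by 1448061_at, 1 of its 4 probe sets. Its levels there were 10.84, 10.75, 10.74 and 11.45 in lean FB and 11.01, 10.65, 10.46 and 9.71 in lean FBC. In obese FB they were 11.80, 11.81, 11.57 and 12.14, and in obese FBC 11.61, 11.50, 11.20 and 11.28. The obese arrays lay above the lean arrays in both populations. Msr1 rose with obesity by 0.88 ± 0.25 in FB (adjusted p = 0.043) and 0.94 ± 0.25 in FBC (adjusted p = 0.0182), and the effects differed by 0.06 ± 0.35 (adjusted p = 0.961, 95% interval -0.68 to 0.79).

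The FB call was at the threshold and ended under 19 of 31 alternatives. Among these were no filter (adjusted p = 0.0598), median centring (1.04, adjusted p = 0.0571) and the mean of the 4 probe sets (0.88, adjusted p = 0.0923). Testing 1448061_at among all single-symbol probe sets (adjusted p = 0.0767) and a random replicate block (adjusted p = 0.0551) ended it too. The FB call also ended on leaving out lean FB array 1, 2 or 3, lean FBC array 2 or 3, any obese FB array, or obese FBC array 2 or 4. Adjusted p over these was 0.0536 to 0.138, with values of 0.78 to 0.97. The FBC call ended without obese FBC array 2 (adjusted p = 0.0508), with median centring (0.86, adjusted p = 0.0704) and with the mean of the 4 probe sets (0.92, adjusted p = 0.0505). The FBC difference was 0.69 to 1.13 on leaving out 1 array and 0.68 to 0.99 under the other alternatives. Among all single-symbol probe sets, adjusted over that larger set, the 4 Msr1 probe sets gave obesity differences of 0.73 to 1.04 in FB and 0.63 to 1.21 in FBC, all above 0. Of these, 1425435_at passed in FB (0.88 ± 0.20, adjusted p = 0.0298) and 1448061_at in FBC (adjusted p = 0.0324). Probe set 1425434_a_at reached 4.41 on lean FBC array 4, one of the arrays of high actin ratio, against 6.85 to 7.67 on the other lean FBC arrays, and it did not pass in either population. Over the arrays Msr1 was most like Tcf7l2 (r = 0.913), a transcription factor of Wnt signalling, Fyb (r = 0.895), an adhesion adaptor, and Tpd52 (r = 0.878).

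Marco, the class A receptor for bacteria and inhaled particles, was dim. Its brighter probe set 1449498_at gave 4.70, 5.39, 6.63 and 5.35 in lean FB and 6.13, 5.73, 6.77 and 4.57 in lean FBC. It gave 4.49, 4.18, 4.16 and 4.16 in obese FB, near the lowest possible value of 4, and 6.38, 5.81, 5.67 and 6.85 in obese FBC. All obese FBC arrays exceeded all obese FB arrays, by 1.93 ± 0.42 on average (adjusted p = 0.0098). Since Marco passed the filter only through its brighter groups, the value without a filter is the one to read, and it was 1.93 ± 0.42 with an adjusted p of 0.0144. Because obese FB lay at the floor, the size depends on the pseudocount, and it was 3.92 with a pseudocount of 1. All obese FB arrays also lay below all lean FB arrays, and that difference of -1.27 ± 0.42 did not pass (adjusted p = 0.0899). It passed without the 3 arrays of high actin ratio (-1.31, adjusted p = 0.0498), without lean FBC array 4 (-1.27, adjusted p = 0.037) and with a pseudocount of 1 (-2.92, adjusted p = 0.0208). The other probe set, 1458297_s_at, stayed between 4.13 and 4.61 on all 16 arrays and showed no such pattern. Marco was most like Fut10 (r = 0.893), Flrt2 (r = 0.853) and Tbxas1 (r = 0.823), the thromboxane synthase.

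Marco is also expressed by macrophages of the peritoneal cavity, which borders perigonadal fat. Of 11 peritoneal macrophage markers tested, 1 was higher and 2 were lower in obese FBC than in obese FB, beside 5.11% and 3.28% of all genes. The phagocytic receptor gene Vsig4 was higher (1.83 ± 0.41, adjusted p = 0.0106). The coagulation factor F5 (-3.85 ± 0.61, adjusted p = 0.00112) and the protease inhibitor Serpinb2 (-3.21 ± 0.39, adjusted p = 0.000135) were lower. Gata6, the transcription factor that defines these cells, lay between 5.21 and 6.28 on all arrays and above the median on 6 of them. In obese against lean FBC 3 of the 11 were higher and 2 lower, beside 8.12% and 5.95% of all genes. The list median there was -0.39 beside 0.08 for all genes. Gata6 (0.56 ± 0.15, adjusted p = 0.0252), Itga6 (2.10 ± 0.22, adjusted p = 9.9e-06) and Vsig4 (2.36 ± 0.41, adjusted p = 0.00119) rose there. Serpinb2 (-4.16 ± 0.39, adjusted p = 5.09e-06) and Timd4 (-2.79 ± 0.36, adjusted p = 0.000102) fell. The summed intensity of the 11 markers was 3185 to 4163 in obese FBC, 2580 to 5759 in obese FB, 3238 to 4762 in lean FBC and 5661 to 15591 in lean FB. The upper end of the lean FB range came from array 4, one of the arrays of high actin ratio. F5 read 12.68 there against 9.88 to 9.96 on arrays 1 to 3, and Serpinb2 12.69 against 11.52 to 11.75. The part of peritoneal macrophages in the Marco result was not tested.

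Cd5l protects macrophages from apoptosis and is induced by liver X receptors. Its levels were 7.62, 7.77, 8.14 and 6.92 in lean FB and 7.91, 7.50, 8.02 and 7.39 in lean FBC. They were 6.44, 7.12, 7.62 and 7.08 in obese FB and 8.0, 8.04, 7.57 and 8.48 in obese FBC. The obese populations overlapped at obese FBC array 3 and obese FB array 3. Cd5l was higher in obese FBC than in obese FB by 0.96 ± 0.28 (adjusted p = 0.0466), and the obesity differences of -0.55 ± 0.28 in FB (adjusted p = 0.293) and 0.32 ± 0.28 in FBC (adjusted p = 0.492) did not pass. The call ended under 17 of 32 alternative settings, among them leaving out lean FB array 1 or 2, lean FBC array 1, 2 or 3, obese FB array 1, 2 or 4, or obese FBC array 1, 2 or 4 (adjusted p of 0.0527 to 0.127 over these). The genes most like it were Arpin (r = 0.870), an inhibitor of actin branching, Mcrip2 (r = 0.860) and Tubg1 (r = 0.845), the gamma-tubulin gene.

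Stab1, or stabilin-1, takes up the matrix protein SPARC and sorts cargo to lysosomes in alternatively activated macrophages. Its levels were 11.49, 11.43, 11.52 and 9.74 in lean FB and 11.26, 11.21, 11.41 and 9.14 in lean FBC. In obese FB they were 11.32, 11.25, 11.30 and 10.08, and in obese FBC 11.62, 12.56, 12.43 and 12.14. The 3 arrays of high actin ratio gave the 3 lowest values, and the 9 other arrays of lean FB, lean FBC and obese FB lay within 11.21 and 11.52, all below obese FBC.

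Over all 16 arrays the obesity difference of Stab1 in FBC was 1.43 ± 0.49 and did not pass (adjusted p = 0.0605). Without the 3 arrays it was smaller, more precise and passed, at 0.87 ± 0.19 (adjusted p = 0.00619). With the log2 actin ratio as a covariate it was 0.80 ± 0.30 (adjusted p = 0.0856), and it passed without lean FB array 4 (1.42, adjusted p = 0.0296) and without obese FB array 4 (1.42, adjusted p = 0.0487). FBC against FB in obese mice moved in the same way, from 1.20 ± 0.49 (adjusted p = 0.138) to 0.88 ± 0.19 without the 3 arrays (adjusted p = 0.00942). In FB the obesity difference was -0.06 ± 0.49 with all arrays (adjusted p = 0.964) and -0.19 ± 0.21 without the 3 (adjusted p = 0.585). The genes most like Stab1 were Slc12a7 (r = 0.970), a potassium chloride cotransporter, Slco2b1 (r = 0.969), an organic anion transporter, and Mpp1 (r = 0.968), with within-group r of 0.96 for each; these r values include the low values of the 3 arrays.

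**Figure D3:**
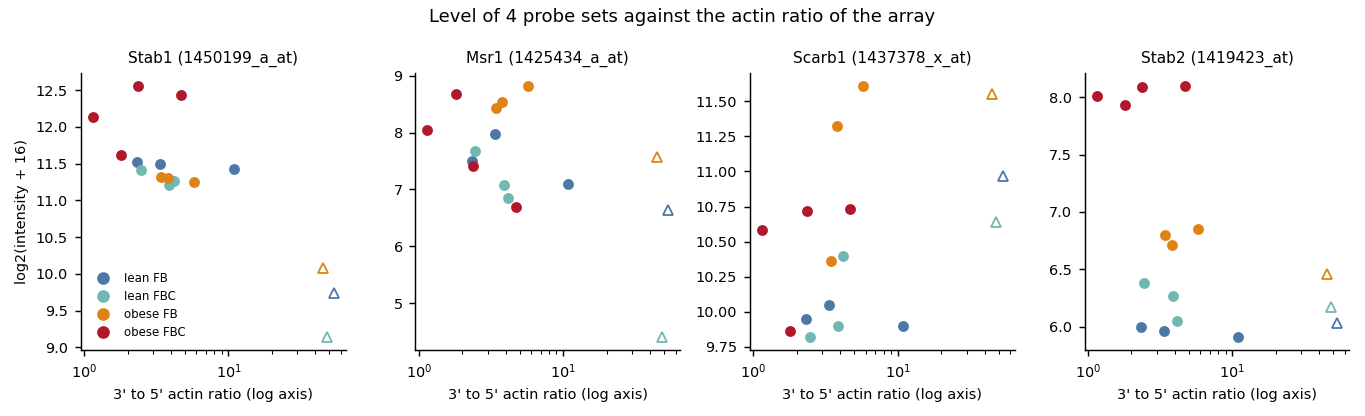
Level of Stab1, 1 Msr1 probe set, Scarb1 and Stab2, log2(intensity + 16), against the 3' to 5' actin ratio of the array on a log axis, coloured by group. The open triangles are the 3 arrays with ratios of 45.0 to 53.3, where Stab1 is at 9.14 to 10.08; Stab2 keeps the order of its groups among them.

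Scarb1 exchanges cholesterol esters with high-density lipoprotein and is abundant in adipocytes and steroid-producing cells. At its brightest probe set, 1437378_x_at, the levels were 10.05, 9.90, 9.95 and 10.97 in lean FB and 10.40, 9.90, 9.82 and 10.64 in lean FBC. In obese FB they were 10.36, 11.61, 11.32 and 11.55, and in obese FBC 9.86, 10.72, 10.73 and 10.58. Obese FB was the highest group, but its array 1 lay below lean FB array 4. The obesity difference in FB, 0.99 ± 0.31, did not pass (adjusted p = 0.0712). It passed without the 3 arrays of high actin ratio (1.11 ± 0.30, adjusted p = 0.02), without lean FB array 4 (1.24, adjusted p = 0.0129) and without obese FB array 1 (1.28, adjusted p = 0.0225). In FBC it was 0.28 ± 0.31 (adjusted p = 0.596). Obese FBC were at -0.74 ± 0.31 against obese FB (adjusted p = 0.152), which passed without obese FB array 1 (-1.02, adjusted p = 0.0398).

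The probe sets of Scarb1 disagreed in FBC. Tested among all single-symbol probe sets, 1416050_a_at rose with obesity in FBC by 1.33 ± 0.33 (adjusted p = 0.025), from 7.85, 7.71, 7.92 and 8.30 in lean to 8.38, 9.69, 9.73 and 9.29 in obese FBC, with no overlap. The other probe sets, whose _x suffix marks probes shared with other sequences, gave 0.28 ± 0.31 (adjusted p = 0.687) and 0.20 ± 0.33 (adjusted p = 0.803). In FB all 3 gave similar differences of 0.950 to 0.996, none past the threshold. Summed intensity of 7 adipocyte markers was 304 to 381 in obese FB and 376 to 758 in obese FBC, below the 1765 to 5760 of lean FB and 1234 to 6399 of lean FBC. Most of the sums in lean mice came from Car3, a carbonic anhydrase. Of 5 adipocyte markers tested, 2 fell in obese FB, beside 4.07% of all genes. In obese FBC 1 rose and 1 fell, beside 8.12% and 5.95%. Car3 fell in both populations (-4.33 ± 0.50 in FB, adjusted p = 8.53e-05, and -3.63 ± 0.50 in FBC, adjusted p = 0.00018). Adipoq fell in obese FB (-1.67 ± 0.44, adjusted p = 0.034), while the leptin gene Lep rose in obese FBC (1.12 ± 0.36, adjusted p = 0.049). The part of adipocyte transcripts in the Scarb1 values was not tested. Scarb1 was most like Nlrx1 (r = 0.900), a mitochondrial NOD-like receptor, Dffb (r = 0.860), a nuclease of apoptosis, and Tmem50b (r = 0.856).

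**Figure D4:**
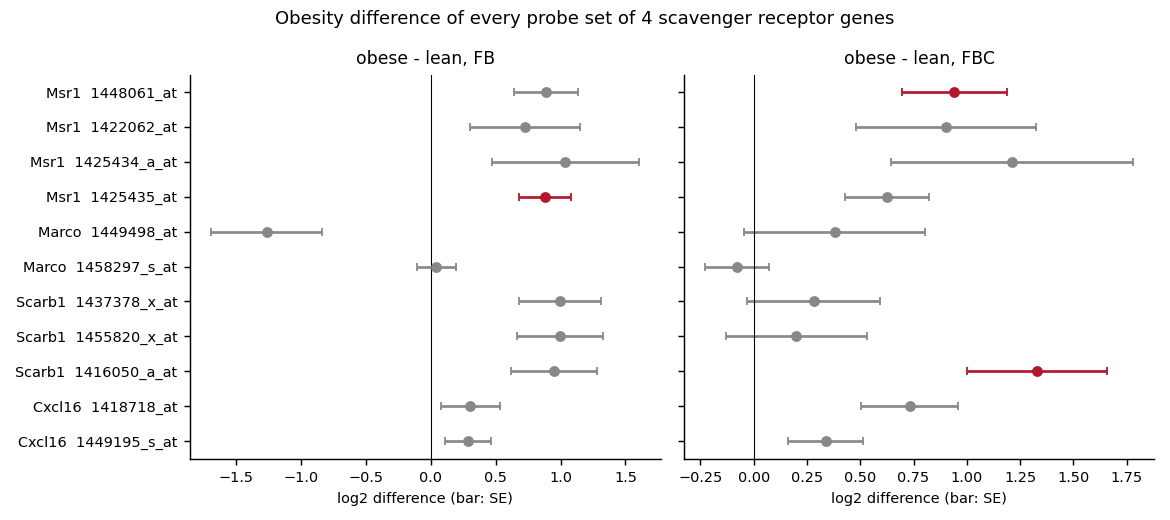
Log2 obesity differences, with SE, of every probe set of the 4 genes that have several, in FB and in FBC, from the fit over all single-symbol probe sets. Red marks an adjusted p under 0.05; the 4 Msr1 probe sets all lie above 0, and the Scarb1 probe set 1416050_a_at lies apart from the other Scarb1 probe sets in FBC.

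Cxcl16 had levels of 9.24, 9.35, 9.49 and 9.0 in lean FB and 9.93, 9.36, 9.46 and 9.22 in lean FBC. They were 10.05, 9.59, 9.61 and 9.04 in obese FB and 10.35, 9.92, 10.04 and 10.59 in obese FBC, so that obese FBC was the highest group but overlapped lean FBC array 1 and obese FB array 1. The groups below it overlapped as well. Cxcl16 rose in obese FBC by 0.73 ± 0.23 (adjusted p = 0.0405), and the obesity difference in FB was 0.30 ± 0.23 (adjusted p = 0.491). The difference between the obese populations, 0.65 ± 0.23, did not pass (adjusted p = 0.0839). It passed under 3 alternatives, without obese FB array 1 (0.81, adjusted p = 0.036), with array weights (0.68, adjusted p = 0.015) and with a random replicate block (adjusted p = 0.0443). The FBC call ended under 17 of 31 alternatives, among them leaving out lean FB array 1 or 2, lean FBC array 2, 3 or 4, obese FB array 2 or 3, or obese FBC array 1, 3 or 4 (adjusted p of 0.0502 to 0.116 over these). The FBC difference was 0.61 to 0.88 on leaving out 1 array and 0.52 to 0.88 under the other alternatives. Within groups, this probe set, 1418718_at, fell as the log2 actin ratio rose (r = -0.70). The other Cxcl16 probe set, 1449195_s_at, gave 0.34 ± 0.18 in FBC (adjusted p = 0.304). The gene of its receptor, Cxcr6, was listed between 4.13 and 5.92. Cxcl16 was most like Uap1l1 (r = 0.968), the lysosomal mannosidase gene Manba (r = 0.953) and Rcn2 (r = 0.930). All 3 rose in obese FBC, which follows in part from their choice by r over these arrays.

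Other genes around these receptors were read from lists. Of 15 other scavenger receptor genes tested, 3 fell in obese FB, beside 4.07% of all genes. These were the haemoglobin receptor Cd163 (-2.11 ± 0.42, adjusted p = 0.00658), Scara3 (-2.30 ± 0.54, adjusted p = 0.018) and the ferritin receptor Scara5 (-3.34 ± 0.80, adjusted p = 0.0204). In obese FBC 1 rose, Lrp1 (1.77 ± 0.33, adjusted p = 0.00242), a large endocytic receptor, beside 8.12% of all genes. Lrp1 was also higher in obese FBC than in obese FB (1.26 ± 0.33, adjusted p = 0.0272), beside 5.11% of all genes. Between the lean populations none of the 15 passed, beside 0.193% of all genes. The list medians were -0.42 in FB, 0.19 in FBC, -0.15 in lean and 0.70 in obese mice. Fibroblast markers moved with Scara3 and Scara5, and 5 of 10 fell in obese FB, beside 4.07% of all genes. The summed intensity of the 10 was 2316 to 3121 in obese FB against 3155 to 24057 in lean FB, 1910 to 15393 in lean FBC and 2907 to 16092 in obese FBC. The part of fibroblasts was not tested. The sum of 5 eosinophil markers was 284 to 4995 in lean FB and at most 875 in the other groups. The upper end of the lean FB range came from array 4, with Siglecf at 11.98, Ccr3 at 9.43 and Il5ra at 8.08. Arrays 1 to 3 of that group reached no more than 8.53, 5.86 and 5.19 for these genes. Msr1 at 1448061_at, Olr1 and Scarb1 were also high and Stab1 low on array 4. The other Msr1 probe sets were not high there. Array 4 was lowest at 1422062_at (9.47 against 9.64 to 9.87) and 1425434_a_at (6.64 against 7.09 to 7.97). At 1425435_at it read 6.83, within the 6.63 to 6.92 of the other arrays. This array also had an actin ratio of 53.3, and the parts of RNA quality and eosinophils were not tested.

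Liver X receptor and cholesterol response genes, which macrophages switch on when loaded with sterol, were 3 higher and 0 lower of 12 tested in obese FBC. Of all genes 8.12% were higher and 5.95% lower there. The 3 were the receptor Nr1h3 itself (0.84 ± 0.18, adjusted p = 0.00532), the cholesterol exporter Abcg1 (1.14 ± 0.23, adjusted p = 0.00389) and the apolipoprotein Apoc2 (1.11 ± 0.32, adjusted p = 0.0281). In obese FB Apoc2 rose (1.77 ± 0.32, adjusted p = 0.00297) and the desaturase Scd1 fell (-1.53 ± 0.41, adjusted p = 0.0359), beside 1.81% and 4.07% of all genes. In obese FBC against obese FB, Nr1h3 and Abcg1 were higher and Apoc2 lower, beside 5.11% and 3.28% of all genes. Of 11 tested partners, ligands and processing enzymes of the scavenger receptors, 1 rose in obese FBC, beside 8.12% of all genes. That gene was Gga2 (1.21 ± 0.18, adjusted p = 0.000333), a sorting adaptor of the Golgi. It was also higher in obese FBC than in obese FB (0.91 ± 0.18, adjusted p = 0.0051), beside 5.11% of all genes. No member of this list passed in FB or between the lean populations, beside 5.89% and 0.193% of all genes. The list medians in obese against lean FBC were 0.16 for the sterol response genes and 0.25 for the partners, beside 0.08 for all genes.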

How the data were processed

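The authors deposited a linear intensity for each probe set, with a 2% trimmed mean of 250 on every array. The submitters' processing notes name Affymetrix Expression Console; how probes were summarized, which version was run and which build was used were not found in those notes or in the file, and no detection calls were used. All 16 columns were used. Values were taken as log2(intensity + 16) and quantile-normalized. Symbols came from the platform annotation, and the gene IDs of all 8 genes matched a RefSeq gene table. Among the probe sets with 1 symbol, the one of highest mean stood for its gene, and a gene was tested if it lay above the median of at least 4 arrays.

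A single limma fit over the 4 groups gave the 4 pairwise comparisons and the difference of the obesity effect, with 12 residual and 16.5 total degrees of freedom, so 5 comparisons in all. The p-values reflect array-to-array spread only, part of which may be technical, and precision is limited by how many arrays there are. The model was tested on simulated data. The members and lists were chosen with earlier results of these data known. Named genes were the 8 members, their 3 most correlated genes (clone and model symbols left out), and the up to 3 called genes of largest change in each list. Whether array numbers pair FB with FBC was checked by residual correlation: it was 0.135 to 0.595 in lean mice, all above 0.1, and -0.137 to 0.31 in obese mice. The highest value, 0.595, came from array 4 of lean mice, where both arrays had a high actin ratio. The check therefore cannot tell a shared mouse from shared array quality, and the main fit used no pairs. With the array number within genotype as a block, the genes called between the lean populations went from 23 to 51. Of the 8 members 0 were called there in either fit. Alternatives changed the filter, the probe set rule, normalization, pseudocount, variance model, array quality terms, samples and pairing. Fits used limma 3.58.1 in R 4.3.3, and figures matplotlib 3.10.9 in Python 3.11.15.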

Additional observations from a re-analysis of the deposited data

Results flagged for a closer look

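Over the 15 probe sets and 4 groups, 60 groups of 4 arrays were examined for an array far from the other 3, and 11 had one; chance gives about 1 in 20. Of the 11, 7 were on the 3 arrays of high actin ratio. On lean FB array 4, Msr1 (1448061_at) was at 11.45 against 10.74 to 10.84, Olr1 at 10.59 against 9.35 to 9.41, Scarb1 at 10.97 against 9.90 to 10.05 (1437378_x_at) and 11.07 against 9.81 to 9.96 (1455820_x_at), all high, and Stab1 at 9.74 against 11.43 to 11.52, low. Stab1 was also low on lean FBC array 4 (9.14 against 11.21 to 11.41) and obese FB array 4 (10.08 against 11.25 to 11.32). The other 4 were Scarb1 on obese FBC array 1 (9.86 against 10.58 to 10.73, 1437378_x_at) and obese FB array 1 (10.28 against 11.40 to 11.57, 1455820_x_at), and Marco on obese FB array 1 (4.49 against 4.16 to 4.18, 1449498_at) and obese FB array 2 (4.61 against 4.13 to 4.14, 1458297_s_at), both near the floor.

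The obesity effect of Stab2 was larger in FBC than in FB by 1.08, a difference that passed its own limma test (adjusted p = 0.0418). That call lay close to the threshold and ended under 17 of 31 alternatives.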

How the results depend on the processing

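Of 1246 recomputed member values, 1095 kept their direction and side of the threshold, 81 lost a call, 36 gained one and 34 turned sign, none of the last called in either setting; the causes were not tested. All genes called were 701 in FB, 1675 in FBC, 23 between the lean populations, 999 between the obese populations and 19 for the difference of the obesity effect; members called were 2, 4, 0, 4 and 1. Leaving out 1 array gave 327 to 1506, 1035 to 2009, 8 to 34, 546 to 1321 and 2 to 348 genes, and 1 to 3, 3 to 5, 0 to 0, 2 to 5 and 0 to 2 members.

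In FB the members called were 1 without a filter, with the mean of probe sets, over all probe sets, without quantile normalization, with median centring, with cyclic loess and with a random replicate block, and 0 with a 2-fold minimum. In FBC they were 2 with the mean of probe sets and 2 with a 2-fold minimum. Over the settings that did not leave out 1 array in turn, all genes called were 490 to 3987 in FB. They were 811 to 4115 in FBC and 555 to 2202 between the obese populations. Where a member count stands without the count of all genes at the same setting, it cannot be read apart from that background. The lean populations gave 37 genes with a filter at the 60th percentile, 13 over all probe sets, 42 with median centring and 9 with only the groups compared. The difference gave 3 genes and 0 members without a filter, 10 and 0 over all probe sets, 4 and 0 with a pseudocount of 1, and 30 and 0 with a trended robust variance. A 2-fold minimum left 811 genes in FBC and 555 between the obese populations. Marco had no value with the filter at the 60th percentile or the mean of probe sets, since it was then too dim.

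Array weights called 3987 genes with 5 members in FB, 4115 genes in FBC, 1324 with 2 members in lean, 2202 with 7 in obese, and 1536 with 5 for the difference. Without the 3 arrays of high actin ratio the counts were 2032 and 4 in FB, 2536 in FBC, 12 in lean, and 300 and 2 for the difference. With the actin ratio as a covariate they were 1159 and 4 in FB, 62 in lean, and 2 members in obese. With the fixed replicate block they were 51 in lean, 1655 in obese, and 230 and 2 for the difference; with the random block 74, 1746, and 158 and 2. The block by array number changed these member calls. Under the fixed block Olr1 (adjusted p = 0.0252) joined Stab2 (adjusted p = 0.0333) for the difference. Stab1 (adjusted p = 0.00967) and Scarb1 (adjusted p = 0.0162) were called between the obese populations.

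Signs turned for Msr1 in the difference, to -0.058 without quantile normalization, -0.18 with median centring, -0.16 with array weights and -0.25 without the 3 arrays. They turned for Stab1 in FB, to 0.085 with median centring, and for Olr1 in FB, to -0.0047 with cyclic loess and -0.099 without the 3 arrays. They turned for Scarb1 in lean, to 0.091 with median centring, 0.074 without the 3 arrays and 0.032 with the covariate, for Cd5l in lean, to -0.31 with array weights and -0.036 without the 3 arrays, for Marco in lean, to -0.042 with array weights, and for Marco in FBC, to -0.031 without the 3 arrays. Leaving out 1 array gave ranges across 0 of -0.40 to 0.32 for Olr1 in FB, -0.49 to 0.24 for Stab1 in FB, -0.030 to 0.70 for Marco in FBC, -0.042 to 0.69 for Marco in lean, -0.17 to 0.22 for Scarb1 in lean, -0.72 to 0.25 for Stab1 in lean, -0.14 to 0.27 for Cd5l in lean and -0.19 to 0.24 for Msr1 in the difference. Marco near the floor limits what its fold can show.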
